A study of Mus musculus with 8 samples.

Results

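The genes described are 55 mouse genes known to be imprinted, which lie at 24 loci, and they were taken by name from the 55681 different probes of a microarray. Of the 55, 28 are known to be expressed from the paternal copy and 23 from the maternal copy, while at *Gnas*, *Ddc*, *Blcap* and *Inpp5f* the expressed copy depends on the transcript. The array had 86 probes for 53 of them and none matched to *Rian* or *Nespas*. The brightest tested probe stood for each gene. Wild-type embryos at E8.5 were compared, 4 sired by wild-type males and 4 by males heterozygous for the hypomorphic Eedl7Rn5-1989SB allele (*Eed* hypo/wt). Fathers were on a C57bl6/129 background. Every mother was wild type, on a C57bl6/129 background per the labels but C57bl/6J per the study's supplement, a difference that the sources do not settle. All 8 embryos were of the same *Eed* genotype and differed in the father. The labels give 2 females and 2 males in each group. RNA of each embryo was hybridised to a single-colour Agilent array of its own, which sums the RNA from the parental copies and cannot show which of them was expressed.

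Genomic imprinting leaves a gene active on the copy from a single parent and silent on the other. At many loci the choice is set by DNA methylation laid down in sperm or oocytes at imprinting control regions and kept through early development. The study also cites work on imprinting without DNA methylation, regulated by maternal methylation of a histone (H3K27). Many imprinted genes act on growth, on the placenta or on nutrient supply. At some loci the silent copy also depends on Polycomb Repressive Complex 2, of which EED is a core subunit. The comparison addresses whether reduced *Eed* function in the father altered the level of imprinted genes in offspring that carry no mutant copy.

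On each array the log2 signal was set relative to that array's 75th percentile, so a value of 0 is the signal of a probe brighter than 75% of probes. Testing took in the 33106 probes detected well above background on 4 or more of the 8 arrays and outside the lowest 20% by mean signal, among them probes of 51 of the 55 imprinted genes. All 51 were well above background on all 8 arrays, through probes that had passed this filter. *Rtl1* and *Rasgrf1* were well above background on 3 arrays each and were not tested. The embryo markers, 9 of 9, and the markers of yolk sac endoderm (7 of 7) and of primitive erythroid cells (5 of 5) were above background on all 8 arrays. So were 5 of the 6 trophoblast and decidua markers with a probe, *Prl3d1*, *Gcm1*, *Plac1*, *Elf5* and *Prl8a2*, while *Tpbpa*, a marker of the spongiotrophoblast, was above background on none.

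The arrays differed in how many probes they detected. Between 32166 and 39559 probes were well above background with wild-type fathers and between 29207 and 38898 with heterozygous fathers. The 3 arrays with the most were wild-type father replicates 1 and 4 and heterozygous father replicate 3. The father groups were hybridised on separate slides, and the effect of the slide cannot be told apart from that of the father. By their labels, 3 embryos of wild-type fathers (replicates 2, 3 and 4) share the first part of their code and may not be independent, in which case p-values measure only the spread between these samples. The study's breeding plan lists 2 wild-type and 3 heterozygous males, fewer than the 4 embryos of each group. Its supplement gives n = 4 for each genotype, and the sources do not settle how many fathers these embryos had.

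No imprinted gene passed the test between the father groups. None of the 51 tested genes was called, that is, differed by at least 2-fold at a Benjamini-Hochberg adjusted p under 0.01 in limma, where 0.0% of all tested probes were called. At an unadjusted p under 0.05 limma listed 3 of the 51, *H19*, *Mkrn3* and *Zrsr1*, against 4.35% of all tested probes. The 4 embryos of each group did not overlap at 2 of the 51, *H19* and *Mkrn3*, against 3.16% of all tested probes. The smallest adjusted p of any imprinted gene from limma was 0.9998.

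**Figure D1:**
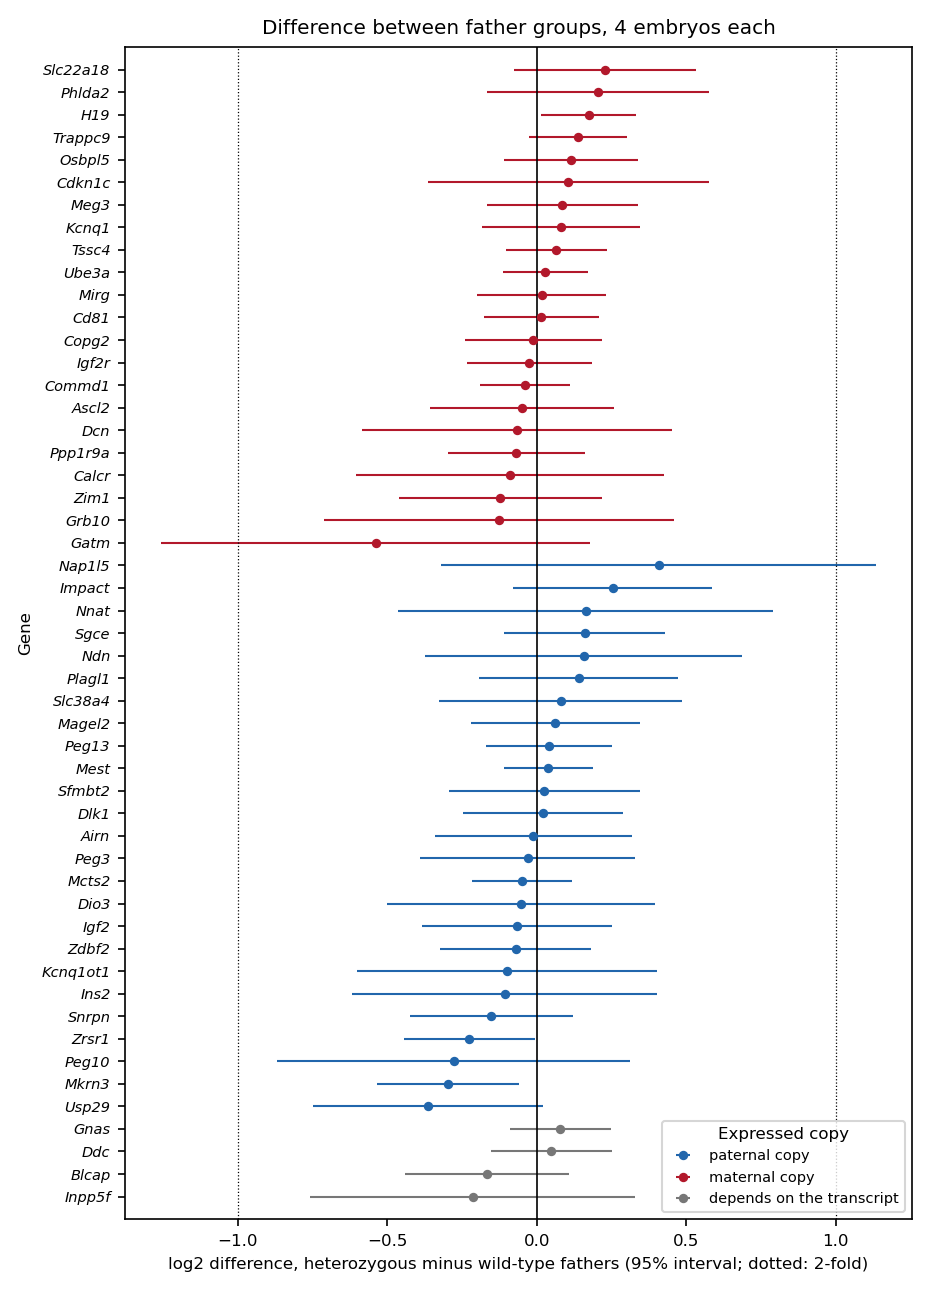
Log2 difference in signal between embryos of heterozygous and wild-type fathers (horizontal axis) for 51 imprinted genes (vertical axis), as points with 95% intervals, coloured by the copy each gene is expressed from (n = 4 embryos per group). The points lie between -0.54 (*Gatm*) and 0.41 (*Nap1l5*), and only these genes have intervals that reach a 2-fold difference, marked by dotted lines.

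The intervals set how large a difference between these groups could have been missed, taking the embryos as independent. They do not separate the father from the slide. The 95% interval of the difference lay within 2-fold in either direction for 49 of the 51 genes (96.1%), against 80.0% of all tested probes, and within 1.5-fold for 38 (74.5%), against 60.6%. The imprinted genes stand here by their brightest probes, and over the brightest tested probe of every gene name on the array the share within 2-fold was 82.1%. When arrays were aligned on their medians, 41 of the 51 lay within 2-fold, against 70.5% of all tested probes. The exceptions at 2-fold were *Gatm*, an enzyme of creatine synthesis, and *Nap1l5*, a retrogene in an intron of another gene. *Gatm* differed by -0.54 (95% interval -1.26 to 0.18) and *Nap1l5* by 0.41 (95% interval -0.32 to 1.14) on the log2 scale. *Ube3a*, a ubiquitin ligase, had the smallest standard error of the 51 at 0.0608, and *Nap1l5* the largest at 0.312.

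Genes assigned to the paternal or to the maternal copy had differences centred close to 0. The classes are those known for each gene, which can hold in certain tissues only, as for *Ube3a* in neurons. The copy expressed in these embryos was not measured. Over the 25 tested genes of the paternal copy the median log2 difference was -0.01, with 12 higher and 13 lower with heterozygous fathers. Over the 22 tested genes of the maternal copy it was 0.02, with 12 higher and 10 lower. The median over all 33106 tested probes was 0.00 on the same scale. When arrays were aligned on their medians, all 3 medians moved down together, to -0.12 for the paternal copy, -0.09 for the maternal copy and -0.10 for all tested probes, so no direction is given to either class.

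Genes were also divided by the germline that lays down the methylation at their locus, with 5 genes not assigned. Of the 10 genes at loci marked in sperm, 7 were tested, and their median log2 difference was 0.02, with a range from -0.11 (*Ins2*) to 0.17 (*H19*). Of the 40 genes at loci marked in oocytes, 39 were tested, with a median of 0.02 and a range from -0.36 (*Usp29*) to 0.41 (*Nap1l5*). Of the 7 genes at loci marked in sperm 1, *H19*, had an unadjusted p under 0.05 in limma, at its brightest probe and not at its others. Of the 39 genes at loci marked in oocytes 2 did, *Mkrn3* and *Zrsr1*, where 4.35% of all tested probes had such a p.

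*Rasgrf1*, a paternally expressed exchange factor for Ras whose locus takes its mark in sperm, was too dim to be tested. Its brighter probe was well above background on 3 of 4 arrays with wild-type fathers and on 0 of 4 with heterozygous fathers. Of all probes, 1.11% had such a split of 3 or 4 against 0, while 0.0341% had the reverse. The lowest signal well above background was higher on every array with a heterozygous father, at -6.61 to -5.31, than with wild-type fathers, at -7.34 to -6.88. Detection was therefore not alike in the groups, and its part in the split was not tested. The brighter probe measured -4.88, -5.60, -6.11 and -4.99 with wild-type fathers and -6.08, -7.54, -4.70 and -5.41 with heterozygous fathers, where the values are only bounds. The highest value was on heterozygous father replicate 3 although that array did not detect it, and the groups overlapped. No fold is given, because wild-type father replicate 3 was not detected either. Without the filter on dim probes its difference had an adjusted p of 0.9998 in limma. The other *Rasgrf1* probe was well above background on no array, and *Rtl1*, a retrotransposon-derived gene of the placenta, was on 2 arrays with wild-type fathers and 1 with a heterozygous father, the 3 arrays with the most detected probes.

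**Figure D2:**
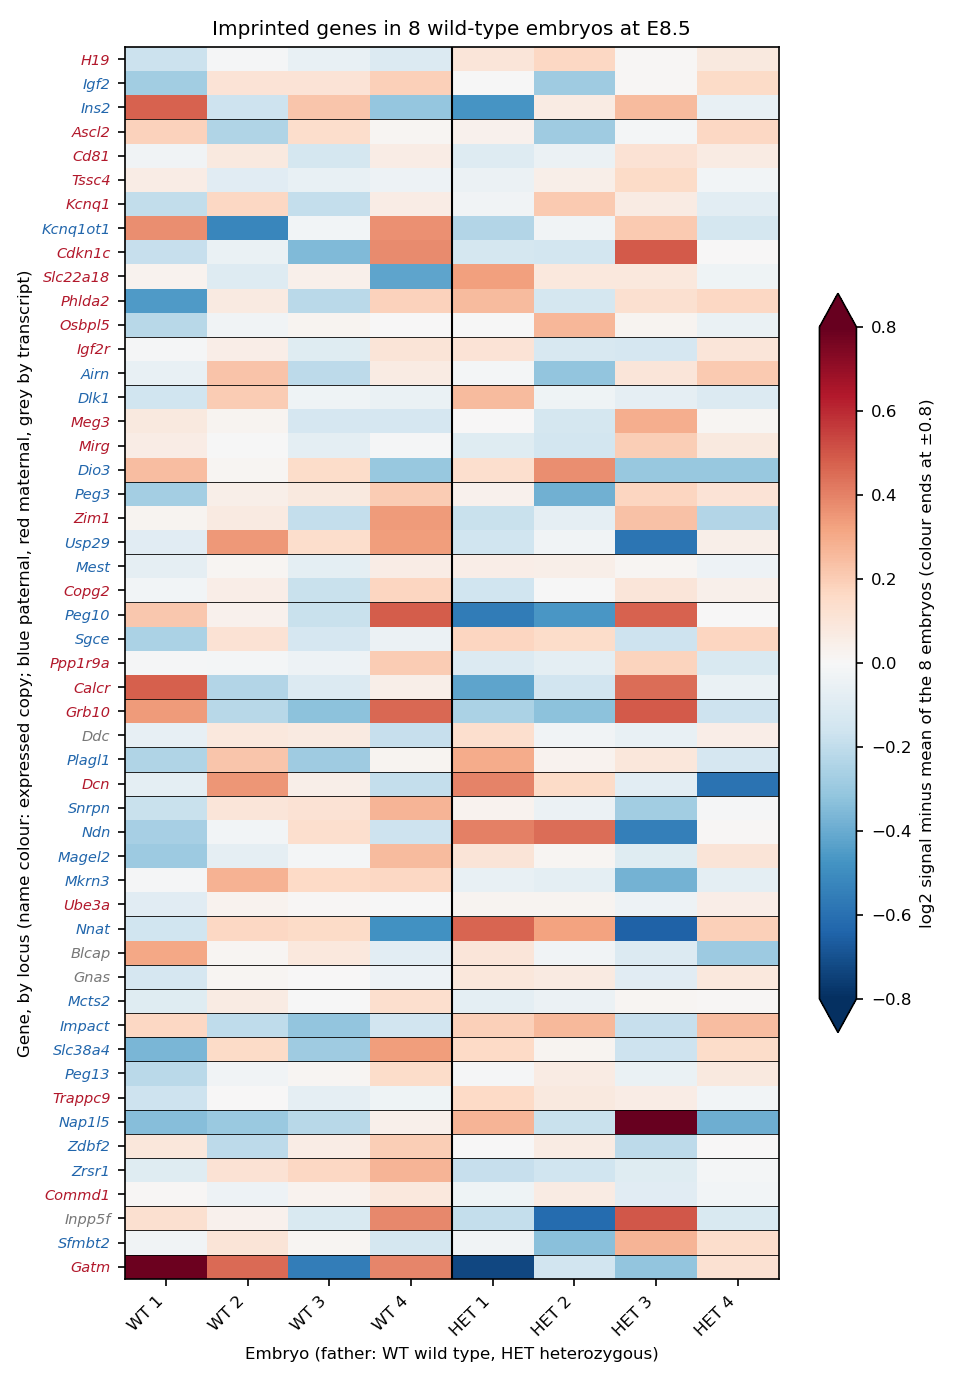
Log2 signal of 51 imprinted genes (rows, in blocks by locus) in each embryo (columns, 4 per father group), as the difference from the mean of the 8 embryos, with name colours for the expressed copy. Deviations from the mean stayed within 0.8 in most cells, and no block of genes at a locus divides the father groups from each other.

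*H19* and *Igf2* are neighbours governed by a control region methylated in sperm, with *H19*, a noncoding RNA, made from the maternal copy and *Igf2*, a foetal growth factor, from the paternal copy. The brightest *H19* probe measured 7.57, 7.73, 7.68 and 7.63 in the embryos of wild-type fathers (replicates 1 to 4) and 7.84, 7.91, 7.75 and 7.82 in those of heterozygous fathers. Every embryo of a heterozygous father was above every embryo of a wild-type father at this probe. The log2 difference was 0.17 (standard error 0.07), a ratio of 1.13, with an unadjusted p of 0.0352 and an adjusted p of 0.9998 from limma.

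The other 4 *H19* probes did not repeat this separation. Their log2 differences were 0.10, -0.04, -0.07 and -0.05 in order of brightness, and the groups overlapped at each of them. The lowest embryo at the last 3 of these probes was heterozygous father replicate 3, at 4.997, 4.965 and 4.514. The mean over all 5 probes differed by 0.02 (unadjusted p = 0.867 from limma on 4 embryos per group).

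For *Igf2* the values were 2.28, 2.67, 2.67 and 2.75 with wild-type fathers and 2.55, 2.27, 2.56 and 2.71 with heterozygous fathers. The lowest embryo of each group lay near the other, and the ranges were almost the same. The log2 difference was -0.06 (95% interval -0.38 to 0.25). *Ins2*, the insulin gene beside *Igf2*, differed by -0.11 (95% interval -0.62 to 0.40).

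*Mkrn3*, which encodes a ubiquitin ligase, belongs to the *Snrpn* locus, where most genes are expressed from the paternal copy. It measured -1.14, -0.85, -0.97 and -0.96 with wild-type fathers and -1.19, -1.21, -1.51 and -1.20 with heterozygous fathers. All 4 embryos of heterozygous fathers were below the others, the gap to the nearest being small. The log2 difference was -0.30 (standard error 0.10), a ratio of 0.814, with an unadjusted p of 0.0212 and an adjusted p of 0.9998 from limma. At a second *Mkrn3* probe the groups overlapped and the difference was -0.14 (standard error 0.17).

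The other genes of the *Snrpn* locus had differences of either sign, none with an unadjusted p under 0.05 in limma. *Snrpn*, a component of the splicing machinery, differed by -0.15, *Magel2* by 0.06 and *Ndn* by 0.16, the last pair being MAGE family genes expressed in neurons. *Ube3a*, which is read from the maternal copy in neurons, differed by 0.03. The median of the 5 genes was 0.03.

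*Zrsr1* is a paternally expressed retrogene related to a splicing factor, and it lies in an intron of *Commd1*, which is expressed mainly from the maternal copy. It measured 0.30, 0.51, 0.56 and 0.67 with wild-type fathers and 0.22, 0.24, 0.30 and 0.38 with heterozygous fathers. The groups overlapped through wild-type father replicate 1, the lowest of its group. The log2 difference was -0.23 (standard error 0.09), with an unadjusted p of 0.0450 and an adjusted p of 0.9998 (limma). *Commd1* differed by -0.04 (standard error 0.06).

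The promoters of *Mkrn3* and *Zrsr1* are shown with that shared by *Peg3* and *Usp29*, because the first pair are the paternally expressed genes with an unadjusted p under 0.05 and the second pair lie at a locus where every tested difference was below 0, a choice made after the values were seen. CpG dinucleotides are the letters that can carry DNA methylation. Whether these windows take the germline mark of their locus was not examined. Sequences are 300-base windows from RefSeq on GRCm38.p6, written along the gene's strand from 5′ to 3′, with each CG in capitals. They were found for 43 of the 55 genes.
Mkrn3, chr7:62420104-62420403, minus strand: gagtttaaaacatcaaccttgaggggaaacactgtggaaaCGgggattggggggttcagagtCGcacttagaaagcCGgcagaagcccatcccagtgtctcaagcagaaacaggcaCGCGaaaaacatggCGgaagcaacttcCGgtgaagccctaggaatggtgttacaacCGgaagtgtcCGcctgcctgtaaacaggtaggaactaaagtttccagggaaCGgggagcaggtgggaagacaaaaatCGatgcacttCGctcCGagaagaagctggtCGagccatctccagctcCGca
Zrsr1, chr11:22971755-22972054, plus strand: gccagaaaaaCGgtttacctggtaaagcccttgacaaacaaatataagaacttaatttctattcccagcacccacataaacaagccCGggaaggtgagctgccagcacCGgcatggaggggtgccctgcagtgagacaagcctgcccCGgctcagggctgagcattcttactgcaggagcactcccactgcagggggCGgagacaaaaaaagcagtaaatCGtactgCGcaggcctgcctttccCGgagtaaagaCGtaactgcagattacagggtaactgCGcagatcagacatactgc
Peg3, chr7:6730370-6730669, minus strand: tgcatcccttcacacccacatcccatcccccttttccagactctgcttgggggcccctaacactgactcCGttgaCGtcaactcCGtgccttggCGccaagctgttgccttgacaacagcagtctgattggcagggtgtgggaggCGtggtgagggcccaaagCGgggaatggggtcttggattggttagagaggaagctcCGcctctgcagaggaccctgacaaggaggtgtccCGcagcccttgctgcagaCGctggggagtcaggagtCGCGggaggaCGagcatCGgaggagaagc

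The *Mkrn3* window held 15 CG and the *Zrsr1* window 10. *Peg3* held 13, and 263 of its bases are shared with the window of *Usp29*, chr7:6730333-6730632 on the plus strand, which held 17. Over the 66 windows of the 43 genes the median was 15.5 CG, and 66.7% of windows had at least 10, against a median of 7 and 43.5% over all 32851 windows. Methylation itself was not measured in these embryos.

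At the *Peg3* locus, all 3 tested genes lay below 0 without passing the test. *Peg3*, a zinc finger gene of the paternal copy, measured 2.65, 2.98, 3.01 and 3.13 with wild-type fathers and 2.96, 2.54, 3.10 and 3.04 with heterozygous fathers, and differed by -0.03 (95% interval -0.39 to 0.33). The groups overlapped over almost their whole range. A second, dimmer *Peg3* probe differed by -0.36 (95% interval -0.66 to -0.06; unadjusted p = 0.0251, adjusted p = 0.9998, limma), so the probes of this gene had the same sign and different sizes.

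*Usp29*, a deubiquitinase transcribed away from *Peg3*, measured -3.15, -2.71, -2.92 and -2.73 with wild-type fathers and -3.22, -3.09, -3.65 and -3.02 with heterozygous fathers. The groups overlapped, with heterozygous father replicate 3 the lowest of all. Its log2 difference was -0.36 (standard error 0.17, unadjusted p = 0.0605 from limma with 4 embryos per group). *Zim1*, a zinc finger gene expressed from the maternal copy, differed by -0.12 (95% interval -0.46 to 0.22).

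**Figure D3:**
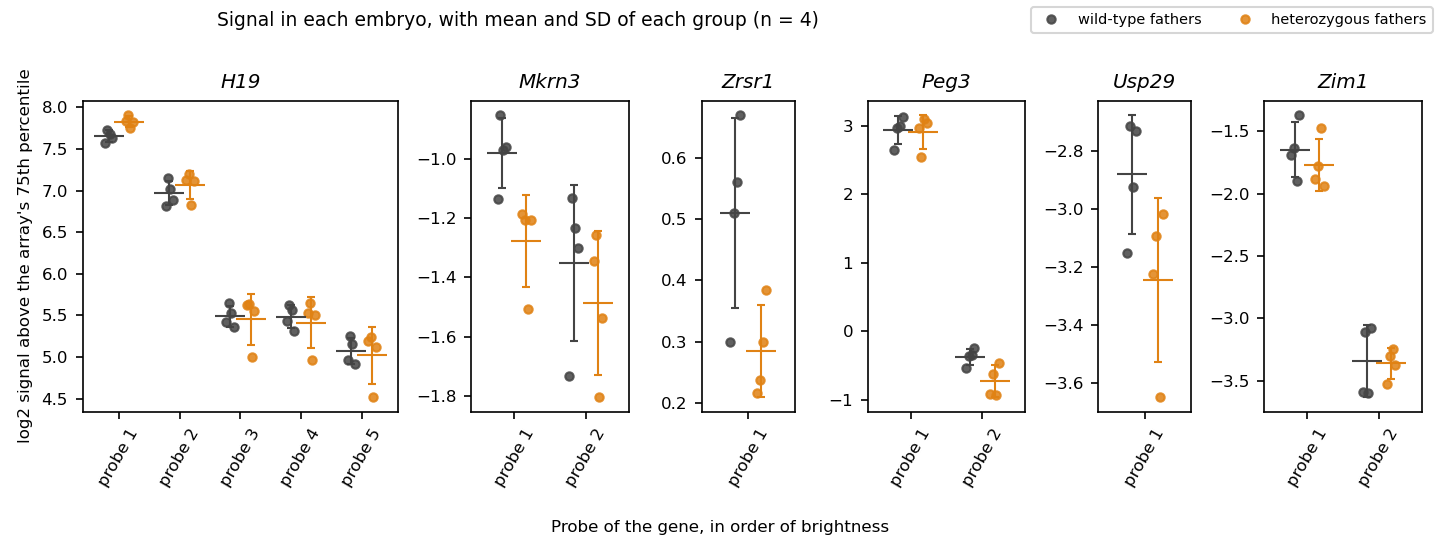
Log2 signal above the array's 75th percentile (vertical axis) in each embryo for every probe of 6 imprinted genes, in order of brightness (horizontal axis), with the mean and SD of each father group (n = 4). The groups are apart at the first *H19* probe and the first *Mkrn3* probe and overlap at the other probes of both genes.

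Disagreement between probes was common. Of the 22 genes with more than 1 tested probe, 10 had all differences of the same sign, 12 had a probe of the other sign, and the median of the largest gap within a gene was 0.22 on the log2 scale. The widest gap was at *Impact*, a regulator of translation expressed from the paternal copy, at 0.25 for the brightest probe and -1.02 for the other.

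The next genes are *Ascl2*, *Cdkn1c*, *Grb10* and *Meg3*, whose silent paternal copies have been described as depending on *Eed* in the embryo. None of the 4 had an unadjusted p under 0.05, and their log2 differences ran from -0.13 to 0.11. *Ascl2*, a transcription factor of the trophoblast, measured -1.27, -1.70, -1.32 and -1.44 with wild-type fathers and -1.42, -1.74, -1.47 and -1.29 with heterozygous fathers. The groups covered the same range, and the difference was -0.05 (95% interval -0.36 to 0.26).

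*Cdkn1c*, an inhibitor of cyclin-dependent kinases that restrains growth, measured 5.45, 5.58, 5.28 and 6.01 with wild-type fathers and 5.49, 5.49, 6.12 and 5.63 with heterozygous fathers. The highest embryo in each group was also among the 3 arrays with the most detected probes. The difference was 0.11 (95% interval -0.36 to 0.58). *Meg3*, a noncoding RNA, measured 5.11, 5.05, 4.90 and 4.90 with wild-type fathers and 5.03, 4.89, 5.32 and 5.05 with heterozygous fathers, a difference of 0.08 (95% interval -0.17 to 0.34), and its other probes differed by -0.11 and -0.25.

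*Grb10*, an adaptor that damps insulin and growth factor signalling, took a high and a low level that did not follow the father. It measured 2.83, 2.27, 2.16 and 2.95 with wild-type fathers and 2.23, 2.16, 2.98 and 2.32 with heterozygous fathers. Wild-type father replicates 1 and 4 and heterozygous father replicate 3 were high, and the other 5 embryos were low, with nothing between 2.32 and 2.83. The father groups differed by -0.13 (95% interval -0.71 to 0.46), which became -0.31 without heterozygous father replicate 3 and 0.01 without wild-type father replicate 4.

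The 3 embryos with high *Grb10* were those whose arrays had the most probes above background. The 3 arrays held the 3 highest values at 6 of the 51 imprinted genes, *Grb10*, *Kcnq1ot1*, *Peg10*, *Ppp1r9a*, *Calcr* and *Inpp5f*, and the 3 lowest at 5, *Nnat*, *Ndn*, *Ddc*, *Ube3a* and *Gnas*. Over all tested probes they held the 3 highest at 16.5% and the 3 lowest at 6.03%. *Nnat*, a small membrane protein of developing neurons, measured 2.49, 2.16 and 2.00 on these arrays and 2.80 to 3.11 on the others. The part of array detection in these levels was not tested.

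**Figure D4:**
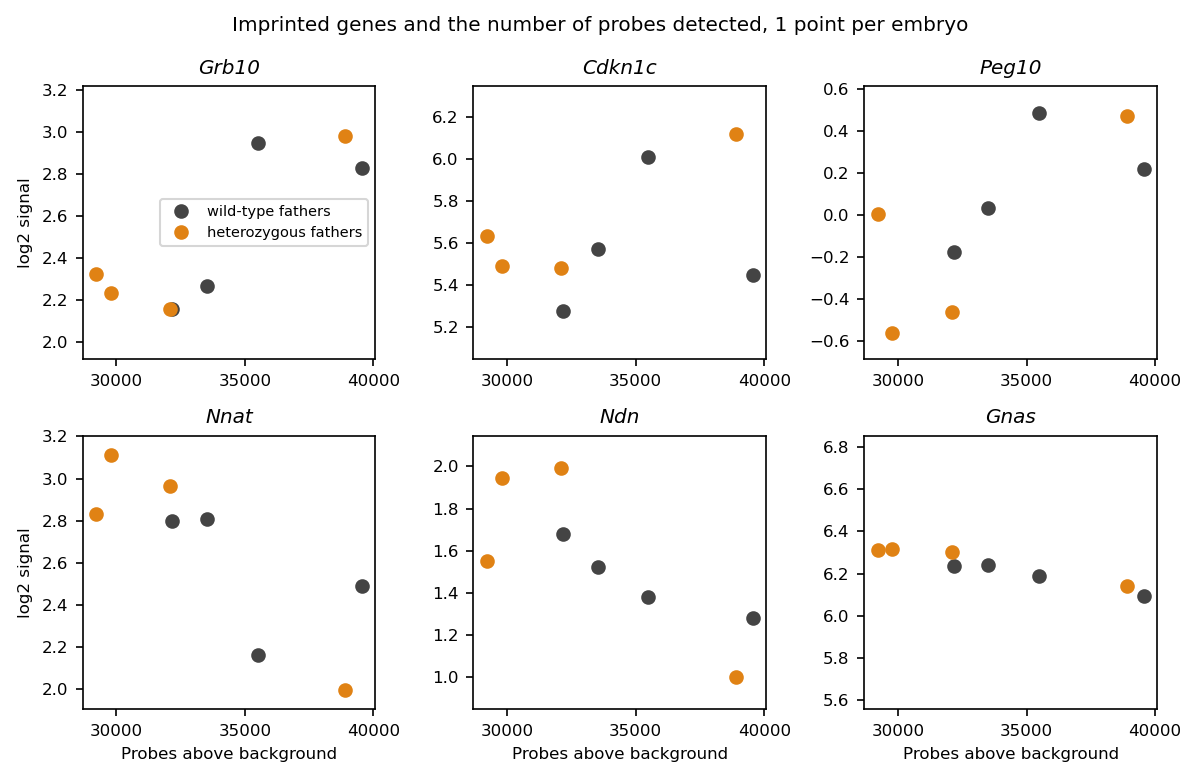
Log2 signal (vertical axis) of 6 imprinted genes against the number of probes well above background on the array (horizontal axis), with 1 point per embryo coloured by father group and the same height of scale in every panel. *Grb10* was higher and *Nnat*, *Ndn* and *Gnas* were lower on the 3 arrays with the most detected probes, which belong to both father groups.

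The *Kcnq1ot1* locus was the largest, with 9 genes, all tested. *Kcnq1ot1*, the noncoding RNA of the paternal copy that silences its neighbours, measured 0.34, -0.55, -0.05 and 0.34 with wild-type fathers and -0.26, -0.05, 0.18 and -0.17 with heterozygous fathers. The highest and lowest values were both in embryos of wild-type fathers. The difference was -0.10 (95% interval -0.60 to 0.40), and -0.28 at a dimmer probe (95% interval -0.67 to 0.11). The 8 maternally expressed neighbours ran from -0.05 (*Ascl2*) to 0.23 (*Slc22a18*, a membrane transporter).

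At *Igf2r* and *Airn*, the noncoding *Airn* of the paternal copy silences *Igf2r*, whose receptor clears IGF2. *Airn* differed by -0.01 (95% interval -0.34 to 0.32) and *Igf2r* by -0.03 (95% interval -0.23 to 0.18). A second, dimmer *Airn* probe differed by 0.15 (95% interval -0.12 to 0.43). At the *Dlk1* and *Meg3* locus, 4 of 6 genes were tested. *Dlk1*, a paternally expressed membrane protein related to Notch ligands, differed by 0.02 (95% interval -0.25 to 0.29), *Dio3*, which inactivates thyroid hormone, by -0.05, and the maternally expressed noncoding *Mirg* by 0.02.

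The locus of *Peg10* and *Sgce* had 4 tested genes, from -0.28 for *Peg10*, a gene of retrotransposon origin needed in the placenta, to 0.16 for *Sgce*. *Mest*, a paternally expressed hydrolase, lay between 7.00 and 7.14 in all 8 embryos and differed by 0.04 (95% interval -0.11 to 0.19). The dimmer *Mest* probes differed by 0.05 and -0.20. *Gnas*, the stimulatory G protein subunit, lay between 6.09 and 6.32 and differed by 0.08 (95% interval -0.09 to 0.25), while its other tested probe differed by -0.20. The remaining loci are given by the differences of their genes in the plot with 95% intervals.

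Neighbours expressed from opposite copies were set against each other over the 8 embryos. Across 5 pairs the correlations of log2 signal were between -0.11 and 0.60, and 0 of the 5 had a Benjamini-Hochberg adjusted p under 0.05 in two-sided exact permutation tests over 40320 pairings, nor an unadjusted p under 0.05. The highest was that of *Airn* and *Igf2r*, with r = 0.60 (exact permutation p = 0.124, adjusted 0.619) and rho = 0.31 (exact permutation p = 0.462, adjusted 0.577). Without the 2 embryos farthest from the median of *Airn*, r was 0.11.

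*H19* and *Igf2* had r = -0.11 (exact permutation p = 0.782, adjusted 0.857) and rho = -0.33 (exact permutation p = 0.428, adjusted 0.577), and r = -0.56 without 2 embryos. *Meg3* and *Dlk1* had r = -0.09 (exact permutation p = 0.857, adjusted 0.857) and rho = -0.43 (exact permutation p = 0.299, adjusted 0.577), and r = 0.07 without 2. Leaving out 2 embryos moved the r of *H19* and *Igf2* further than that of *Meg3* and *Dlk1*, which changed sign but stayed small.

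*Kcnq1ot1* and *Cdkn1c* had r = 0.39 (exact permutation p = 0.332, adjusted 0.831) and rho = -0.02 (exact permutation p = 0.977, adjusted 0.977), and r = 0.75 without 2. *Zim1* and *Peg3* had r = 0.28 (exact permutation p = 0.503, adjusted 0.839) and rho = 0.33 (exact permutation p = 0.428, adjusted 0.577), and r = -0.46 without 2. Taken as deviations from the mean of each father group, the r values of the 5 pairs were 0.08, -0.12, 0.60, 0.44 and 0.27 in the order *H19*, *Meg3*, *Airn*, *Kcnq1ot1*, *Zim1*. With 4 embryos on a slide, no correlation was computed within a slide. When arrays were aligned on their medians, 4 of the 5 pairs passed, with r from 0.87 to 0.97, all positive.

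**Figure D5:**
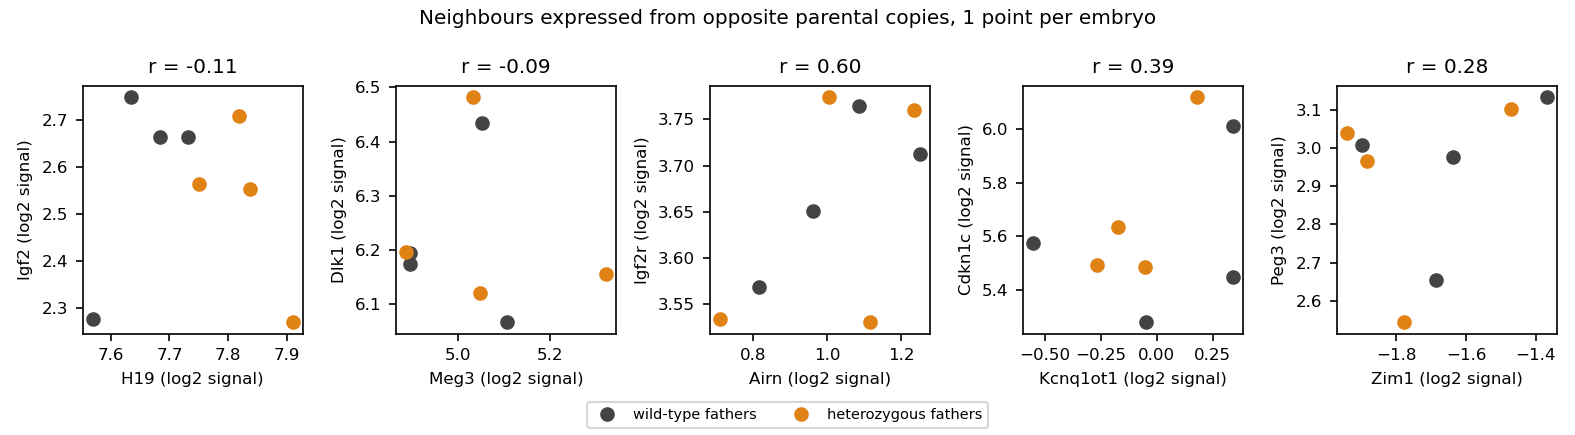
Log2 signal of 5 pairs of neighbouring genes expressed from opposite parental copies, with the noncoding or maternal partner named first on the horizontal axis and 1 point per embryo, coloured by father group. Pearson's r, printed above each panel, lies between -0.11 and 0.60.

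Female and male embryos differed at 0 of the 51 genes under the calling rule, where limma called 0.0332% of all tested probes, and 2 of the 51 had an unadjusted p under 0.05, against 3.27% of all tested probes. These genes are named after their values were seen. *Plagl1*, a paternally expressed zinc finger gene that regulates growth, measured 4.69, 4.64, 4.96 and 4.79 in females and 5.15, 4.95, 5.22 and 5.02 in males, so the sexes overlapped between 4.95 and 4.96. Its log2 difference, female minus male, was -0.31 (standard error 0.09, unadjusted p = 0.0117, adjusted p = 0.9999, limma), and its 3 dimmer probes differed by -0.33, -0.05 and -0.35.

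*Phlda2*, a maternally expressed gene that limits placental growth, differed by -0.32 (standard error 0.12, unadjusted p = 0.0298, adjusted p = 0.9999, limma) in the same direction. The father by sex interaction called 0 of the 51 genes, where limma called 0.0% of all tested probes, and 2 had an unadjusted p under 0.05, against 2.22% of all tested probes.

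Factors that keep imprints and genes linked to them were examined as a second list of 9 genes. The list was made with the difference of *Zfp42* already known, so its counts are not independent of that value. In limma, 2 of the 9 had an unadjusted p under 0.05 between the fathers, against 4.35% of all tested probes, and none was called. The groups did not overlap at 3 of the 9, against 3.16%. *Zfp57*, a zinc finger protein that binds methylated imprinting control regions, measured -1.03, -0.98, -0.999 and -1.08 with wild-type fathers and -0.65, -0.78, -0.82 and -0.47 with heterozygous fathers. The difference was 0.34 (standard error 0.09, unadjusted p = 0.0063, adjusted p = 0.9998, limma), and its second probe differed by -0.06.

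The second was *Zfp42*, at 1.76 (standard error 0.17, unadjusted p = 1e-05, adjusted p = 0.247, limma), a gene of pluripotent cells. *Trim28*, the corepressor that *Zfp57* recruits, did not overlap between groups either but differed by 0.10 (unadjusted p = 0.113, limma). *Dnmt1*, *Uhrf1*, *Ctcf*, *Yy1*, *Zfp445* and *Dppa3* overlapped and ran from -0.38 to 0.09. Of 20 other genes reported as imprinted in some tissue, 18 were tested, and 0 had an unadjusted p under 0.05, with a median of 0.07.

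Markers of other tissues were read beside these results. Of the 5 tested markers of trophoblast and decidua, 2 were higher and 3 lower with heterozygous fathers, with a median log2 difference of -0.06. *Prl8a2*, a hormone of the decidua, measured 1.56 to 2.92 with wild-type fathers and -2.61 to 0.72 with heterozygous fathers. It alone of the 5 had an unadjusted p under 0.05, with a log2 difference of -2.46 (unadjusted p = 0.0126, adjusted p = 0.9998, limma). *Plac1* differed by 0.53, *Elf5* by 0.05, *Gcm1* by -0.06 and *Prl3d1* by -0.91.

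The mean deviation of these 5 markers from their means over all embryos ran from 0.04 to 0.49 with wild-type fathers and from -1.02 to 0.19 with heterozygous fathers, the lowest being heterozygous father replicate 3. For 7 yolk sac endoderm markers it ran from -0.31 to 0.24 and from -0.12 to 0.05 in the same order. For 5 primitive erythroid markers it ran from -0.96, in wild-type father replicate 4, to 0.42 and from -0.05 to 0.34. All 5 erythroid differences were above 0, from 0.11 to 0.53, and all 5 were also above 0 between females and males, with none at an unadjusted p under 0.05 between the fathers and 1 between the sexes, *Gata1* at 0.57 (unadjusted p = 0.0093, limma). The part of such tissue in the imprinted genes was not tested, and fewer cells of a type and less RNA per cell cannot be told apart in whole embryos.

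Leaving out single embryos moved the count of 3 genes at an unadjusted p under 0.05. It was 7 of 51 without heterozygous father replicate 3, where 9.36% of all tested probes had such a p. It was 1 of 51 without wild-type father replicate 2 or 4 or heterozygous father replicate 1 or 2. In that order, 2.93%, 4.18%, 3.07% and 3.22% of all tested probes had such a p. *Mkrn3* stayed lower with heterozygous fathers in every one of 19 alternative settings, between -0.40 and -0.22, and *Zrsr1* between -0.33 and -0.17. *H19* stayed higher, between 0.02 and 0.20. At the probes used for *H19* and *Mkrn3* the groups do not overlap, so leaving out embryos could not reverse the direction. Several other settings refit the same values, so the stable direction is no separate support.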

How the data were processed

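The authors scanned single-colour Agilent arrays and extracted them with Agilent Feature Extraction 11.0.1.1, per the labels, and deposited an intensity per spot that is background-subtracted without scaling across arrays. A second deposited table repeats these intensity values for the series, within 0.995 to 1.005 of those of the scanner files. The members and lists were chosen with earlier results of these data known. Of 59305 spots, those flagged as outliers were left out, spots of a probe were averaged, and each array was set on the log2 scale relative to its own 75th percentile. Of 27752 probes with a RefSeq accession, 27235 were named through RefSeq names of GRCm38.p6, and the file's own name was kept for the rest. No columns of the authors' own comparisons were used.

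Father groups, sexes and their interaction were compared with limma 3.58.1 in R 4.3.3 (with data.table version 1.17.8) over all tested probes. The p-values were adjusted by Benjamini-Hochberg. On simulated data with residuals shuffled over all tested probes, the calling rule between father groups missed most 2-fold changes. The median SD within groups was 0.214 over all tested probes and 0.172 over the imprinted genes, so that share is not theirs. Genes were called at a 2-fold or larger difference with an adjusted p under 0.01, as in the study. The number of arrays limits the precision. Full statistics are given for genes at an unadjusted p under 0.05 or with groups apart, 4 genes described as depending on *Eed*, and the genes of reciprocal pairs. Genes named outside this rule were chosen after their values were seen. *Nespas* had no matched probe, which left 5 of 6 pairs. Tables, permutations and figures were made with Python 3.11.15, numpy 2.4.6, pandas 2.3.3, scipy 1.17.1 and matplotlib 3.10.9.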

Additional observations from a re-analysis of the deposited data

Results flagged for a closer look

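Dixon's test compares the distance from the most extreme embryo to the next with the spread of its group of 4, here as a share of that spread. In 6 of 106 groups of imprinted genes the share exceeded the 95% critical value, and chance flags about 1 in 20 groups, or 5.3. Of the 6, 5 were heterozygous father replicate 3. No such count was made over all tested probes, so the 5 are not read as a trait of imprinted genes. This embryo was low at *Mkrn3* (-1.51 against -1.21 in the nearest embryo, share 0.94), *Sgce* (2.18 against 2.50, share 0.926), *Gnas* (6.14 against 6.30, share 0.92) and *Impact* (3.66 against 4.04, share 0.847). It was high at *Ppp1r9a* (1.46 against 1.20, share 0.856). Wild-type father replicate 4 was high at *Ppp1r9a* as well (1.48 against 1.27, share 0.87). Both arrays are among the 3 with the most detected probes, and the part of this in the values was not tested.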

How the results depend on the processing

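The count of 0 called imprinted genes between the fathers held in limma under 20 alternatives, including an adjusted p under 0.05 without a fold limit, and the counts of 0 between the sexes and for the interaction held under 15 each. The 3 genes at an unadjusted p under 0.05 became 0 when arrays were aligned on their medians and 0 when the embryo code entered as a random block (estimated correlation 0.54), 1 without a filter on dim probes, 1 with the mean of all tested probes, and 1 to 7 with single embryos left out. Without the 2 arrays with the most detected probes, a setting chosen after seeing the data, the count was 4, against 7.07%. Aligning medians adds a constant per array, which moved the medians of the paternal and maternal copies to -0.115 and -0.0869 and made 4 of the 5 pairs correlated. With single embryos left out, the median of the paternal copy ran from -0.02 to 0.04 and that of the maternal copy from -0.02 to 0.05.

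With the replicate block the count was 1, against 2.64% of all tested probes, and that gene was *Usp29*, not one of the 3. Embryos of the same number deviated with correlations of -0.55, -0.04, -0.59 and -0.15, so the numbers do not pair the embryos. The block left the count of 0 calls as it was. With 1 embryo of each number per group, it could not move either median.

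*H19*, *Mkrn3* and *Zrsr1* kept their direction in all 19 alternatives, with an unadjusted p under 0.05 in 5, 13 and 8 of them. The cause of these changes was not tested. Leaving out embryos could not reverse *H19* or *Mkrn3*, whose groups do not overlap at the probes used. Normexp was run on the median spot signal.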
